A study of Arabidopsis thaliana with 33 samples.

Results

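The regions described here are peaks of acetylated histone H3 (H3ac) in *Arabidopsis thaliana*. They lie over a transposable element (TE) and outside the gene loci used for the RNA values. A peak was taken when it overlapped by at least 1 bp a TE locus of the deposited TE expression tables and did not overlap a locus of the gene expression tables. This rule used positions only and no measured level. It found 1448 of the 24898 peaks (5.82%) in the table that compares hda6 with the wild type, and 786 of the 24998 peaks (3.14%) in the table that compares sant1234-null with the wild type. Nearly all were windows of 401 bp, the exceptions being 6 in the hda6 table and 1 in the sant1234-null table. Outside genes means outside these gene loci only. RefSeq places a further gene or pseudogene locus under 1225 of the 1448 hda6 regions and 653 of the 786 sant1234-null regions.

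The groups, all of untreated seedlings aged 12 days and raised on MS medium with 16 h of light and 8 h of darkness, were an hda6 line with a T-DNA insertion, quadruple mutants named sant1234-null, an hhp1 T-DNA line, mbd1/2/4 triple mutants (mbd124) and wild-type Col-0 (WT). Whole seedlings were used, so a level is a mixture over cell types, and fewer cells with a mark cannot be told apart from less of it per cell. RNA was sequenced from all 5 genotypes (15 samples) and H3ac from hda6, sant1234-null and WT (9 ChIP and 9 input samples), with 3 replicates in each group. The tables hold 1 value per genotype, which leaves the spread between replicates unseen, and the calls are those of the authors' tests. The ChIP tables give 70.8 M mapped reads for hda6, 80.1 M for sant1234-null and 70.1 M for WT, while the depth of the RNA libraries is unknown. RNA of HDA6 itself, in the authors' deposited table, stood at 18.8 FPKM in hda6 and 17.0 FPKM in WT with an adjusted p of 0.735, and was thus not shown to be lower in the libraries labelled hda6. The labels name no loci for sant1234-null.

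Acetyl groups on the tail of histone H3 are found at active promoters and are removed by histone deacetylases. HDA6 is a deacetylase of this kind and is known in Arabidopsis for keeping TEs, transgenes and ribosomal RNA gene copies silent, together with DNA methylation. The title of the series places HDA6 in a complex with a domesticated Harbinger transposase and contrasts genes with TEs. The comparison asked here is which TE regions gained or lost H3ac in hda6 and in sant1234-null, and what the RNA of those TEs did.

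The sequences of 6 of these regions are given first as examples. They are the central 300 bases of peaks of the hda6 table, on the plus strand of the RefSeq assembly TAIR10.1, whose nuclear positions match the build TAIR10 of the files. Capitals mark GAGAGA or its reverse complement TCTCTC, the only one of the 5 motifs searched on both strands that occurred in these windows. The other motifs are spelled out with their shares below. The first pair had the largest mean rise among regions called higher in both mutants, the next pair are Sadhu retroelements that gained H3ac in hda6, and the last pair are Sadhu retroelements called lower in both mutants. The Sadhu elements were picked after their values were seen.
AT5TE54905, chr5:15176573-15176872: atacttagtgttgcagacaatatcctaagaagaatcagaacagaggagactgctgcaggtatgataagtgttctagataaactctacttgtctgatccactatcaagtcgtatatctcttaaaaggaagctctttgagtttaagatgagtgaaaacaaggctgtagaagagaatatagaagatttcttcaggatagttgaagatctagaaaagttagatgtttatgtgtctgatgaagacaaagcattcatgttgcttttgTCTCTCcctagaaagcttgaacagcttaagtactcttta
AT2TE31290, chr2:7598301-7598600: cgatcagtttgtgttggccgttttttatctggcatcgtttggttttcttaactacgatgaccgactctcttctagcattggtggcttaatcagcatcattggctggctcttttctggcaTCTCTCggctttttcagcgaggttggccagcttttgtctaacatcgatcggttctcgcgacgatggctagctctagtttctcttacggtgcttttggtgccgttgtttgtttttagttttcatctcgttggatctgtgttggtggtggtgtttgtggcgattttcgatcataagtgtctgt
SADHU3-1 (AT3TE63935), chr3:15813617-15813916: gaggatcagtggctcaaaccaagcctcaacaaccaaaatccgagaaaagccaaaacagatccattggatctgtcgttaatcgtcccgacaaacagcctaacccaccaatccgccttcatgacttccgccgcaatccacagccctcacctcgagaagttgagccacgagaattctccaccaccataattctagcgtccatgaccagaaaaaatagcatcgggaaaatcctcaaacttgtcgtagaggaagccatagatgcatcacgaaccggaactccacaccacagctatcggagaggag
SADHU8-1 (AT1TE62360), chr1:18807015-18807314: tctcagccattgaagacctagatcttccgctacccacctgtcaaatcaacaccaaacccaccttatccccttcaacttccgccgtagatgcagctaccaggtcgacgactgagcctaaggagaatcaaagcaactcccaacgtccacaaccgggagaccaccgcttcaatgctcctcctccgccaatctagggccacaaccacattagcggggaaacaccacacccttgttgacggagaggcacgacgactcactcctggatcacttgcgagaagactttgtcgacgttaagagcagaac
SADHU1-2 (AT1TE35415), chr1:10967237-10967536: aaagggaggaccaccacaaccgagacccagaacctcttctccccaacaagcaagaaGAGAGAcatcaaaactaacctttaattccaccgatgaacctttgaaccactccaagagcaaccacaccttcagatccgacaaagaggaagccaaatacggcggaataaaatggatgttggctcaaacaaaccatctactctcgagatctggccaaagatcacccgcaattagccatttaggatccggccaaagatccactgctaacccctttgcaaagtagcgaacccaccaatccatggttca
SADHU2-1 (AT1TE41790), chr1:12840609-12840908: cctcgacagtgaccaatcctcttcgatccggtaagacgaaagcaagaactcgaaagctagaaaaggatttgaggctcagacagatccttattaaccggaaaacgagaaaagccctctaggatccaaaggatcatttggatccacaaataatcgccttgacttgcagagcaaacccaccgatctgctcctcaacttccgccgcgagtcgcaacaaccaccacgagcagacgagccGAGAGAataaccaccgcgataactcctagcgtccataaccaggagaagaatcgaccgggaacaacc
The window of AT5TE54905 was 35.7% G or C with a single CG, while that of AT2TE31290 was 45.7% G or C and held 17 CG. The TE locus of AT2TE31290 covered only 66 of the 401 bases of the sant1234-null peak that contains this window. Most of the bases printed for AT2TE31290 therefore lie outside the TE. The Sadhu windows were richer in G and C, with 49.7% at SADHU3-1 and 53.7% at SADHU8-1, which rose, and 47.7% at SADHU1-2 and 50.3% at SADHU2-1, which fell. None of the 6 peaks had a near-identical copy elsewhere in the genome, at 95% identity over 95% of the peak.

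In hda6, H3ac at TE regions outside genes was mostly weak and a minority of the regions gained it. The level of a peak is given as its concentration, the log2 of the mean normalised read count of a genotype. A concentration of 0 is the floor of the scale in the tables and stands for a mean normalised count of at most 1. Whether input reads were subtracted first is not stated, so a value of 0 need not mean a window without reads. Over all 1448 regions the median concentration was 5.10 in hda6 and 4.46 in WT. In the authors' deposited table, 194 regions (13.4%) were called higher in hda6 at a DiffBind FDR under 0.05, beside 5.29% of all peaks. Another 16 regions (1.10%) were called lower, against 22.5% of all peaks, and 1238 were not called. The lower calls are set beside peaks of a matched WT level further below. The deposited log2 folds of all peaks had a median of -0.23, so that the typical peak was lower in hda6, whereas the median over the TE regions was 0.08. With the folds centred on the median of all peaks and called again, 255 TE regions (17.6%) were higher and 0 lower, beside 8.02% and 3.39% of all peaks.

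The 194 regions that rose had a median concentration of 6.39 in hda6 and 2.79 in WT, and 50 of them were listed at 0 in WT. Their median deposited log2 fold was 1.88, with a range of 0.56 to 11.67 that includes folds against a WT value of 0. Among the 144 that were above 0 in both genotypes, the median deposited fold was 1.33 on the log2 scale while the median difference of the concentrations was 2.61. The deposited folds were smaller than those differences in 99.4% of all TE regions above 0 in both genotypes. The 16 regions that fell kept a strong mark, at a median of 7.03 in hda6 and 8.04 in WT. Their deposited log2 folds ran from -0.94 to -0.56, beyond the lower quartile of all peaks (-0.54).

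All of the 10 largest rises in hda6 stood on a WT value of 0, and 7 of them lay in TE-rich parts of the chromosomes. The top one, over AT4TE32185 (chr4:7389720-7390120), had a concentration of 9.70 in hda6 and 0 in WT (FDR 2.10e-20 in the authors' deposited table). Next came the region of SADHU3-1 (AT3TE63935, chr3:15813567-15813967), at 8.56 in hda6 and 0 in WT, and that of AT1TE42875 (chr1:13127685-13128085), at 8.49 in hda6 and 0 in WT. The region of AT2TE23970, part of a locus of 13805 bp on chromosome 2, stood at 8.36 in hda6 and 0 in WT. The other 6 of the 10 had concentrations between 6.85 and 7.77 in hda6. These windows were thus at the floor of the scale in WT and well above it in hda6. Windows at 0 in WT can enter a table through the mutant alone, so such rises are partly set by the listing. None of the 10 overlapped any peak of the sant1234-null table, but neither did 785 of all 1448 hda6 regions (54.2%). The absence of a peak is not a measured level in sant1234-null. The largest fall, over AT3TE51710 (chr3:12559415-12559815), had a concentration of 5.77 in hda6 and 6.96 in WT (FDR 0.00407 in the authors' deposited table).

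Rises of similar height were also seen where WT was not at 0. The region over AT4TE09000 and its neighbours, in a TE locus of 6929 bp on chromosome 4, had 7.89 in hda6 and 0.40 in WT (FDR 1.32e-18 in the authors' deposited table). The region of AT2TE73030 had 8.08 in hda6 and 0.99 in WT, and that of AT1TE35305 had 8.53 in hda6 and 2.31 in WT. All 3 were weak in WT and in hda6 stood above 6.22, the median mean concentration of all peaks in that table. These regions with WT above 0 were named after their values were seen.

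Falls in hda6 were small steps from a high level. After AT3TE51710 came one of the regions of AT2TE23870, with 6.97 in hda6 and 8.04 in WT (FDR 0.00723), and AT4TE52540, which lies 435 bp from the receptor-like kinase gene CRK28, with 7.04 in hda6 and 8.05 in WT (FDR 0.00464 in the authors' deposited table). The 10 regions with the largest falls in hda6 all overlapped a peak of the sant1234-null table. AT3TE51710 and AT4TE52540 were called lower there too, with 5.90 in sant1234-null and 7.05 in WT for AT3TE51710, and 7.30 in sant1234-null and 8.15 in WT for AT4TE52540.

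**Figure D1:**
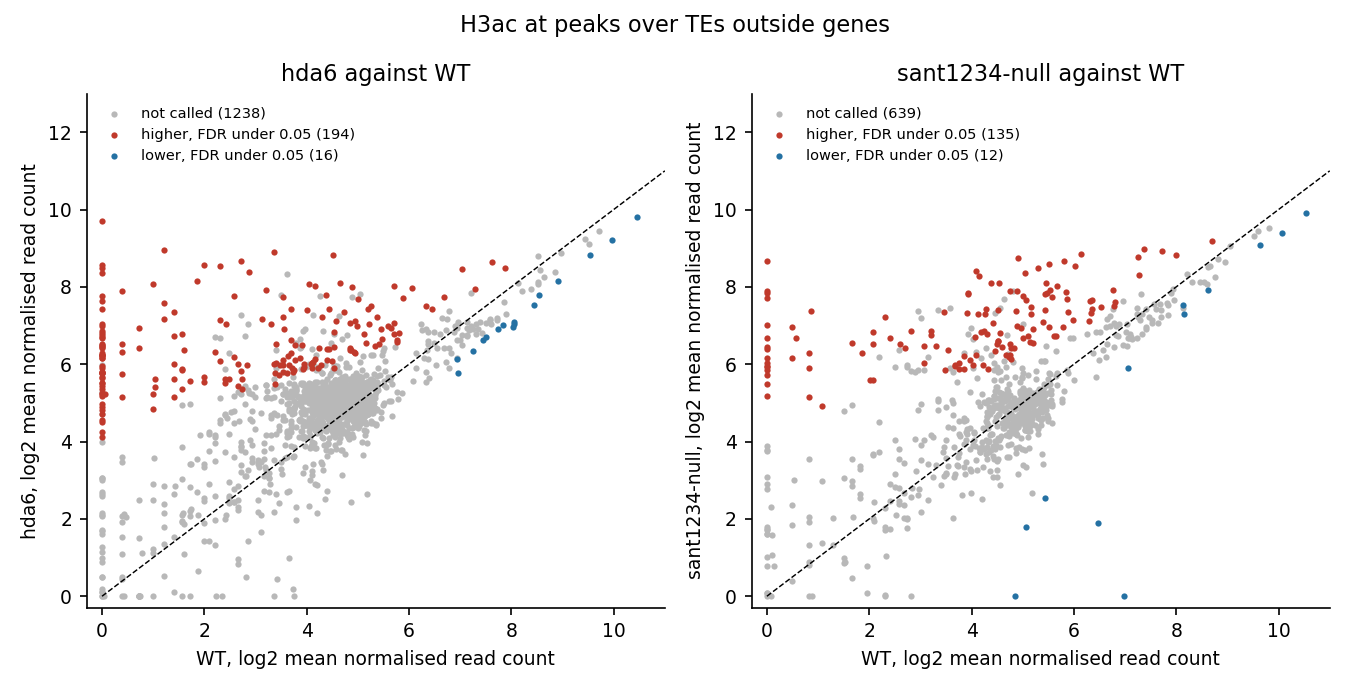
H3ac at each TE region outside genes, as the log2 mean normalised read count in the mutant (vertical axis) against that in WT (horizontal axis), for hda6 (left) and sant1234-null (right). Each point is 1 peak with no replicate error, the dashed line marks equal values, and red and blue points are the authors' calls, which are 194 higher and 16 lower in hda6 and 135 higher and 12 lower in sant1234-null.

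In sant1234-null the share of TE regions that gained H3ac was near that of all peaks. Fewer of them were called lower, and shares at a matched WT level are given further below. Of the 786 regions, 135 (17.2%) were called higher in the authors' deposited table, beside 15.2% of all peaks, and 12 (1.53%) were called lower, beside 12.9% of all peaks. The median concentration of the 786 regions was 5.0 in sant1234-null and 4.74 in WT. Folds were centred near 0 in this table, with a median of -0.02 over all peaks and 0.02 over the TE regions. The 135 that rose had a median of 6.87 in sant1234-null and 4.41 in WT, with 16 of them listed at 0 in WT, and their median deposited log2 fold was 2.04.

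The largest rise in sant1234-null was over AT3TE44000 (chr3:10579065-10579465), at 8.67 in the mutant and 0 in WT (FDR 2.48e-17 in the authors' deposited table). The hda6 table holds a window there that is shifted by 272 bp, with 7.99 in hda6 and 4.88 in WT, so the WT value of 0 belongs to the one window and not to the TE as a whole. AT5TE54905 followed at 7.88 in sant1234-null and 0 in WT. Its window here is shifted by 328 bp from that of the hda6 table. The sequence printed above comes from the hda6 window and is mostly outside this one. The other 8 of the 10 largest rises had 5.96 to 7.83 in sant1234-null, and the WT value was 0 in each. The smallest FDR of all TE regions of the table, 1.71e-31 in the authors' deposited table, belonged to AT4TE28200 (chr4:6591487-6591887), with 8.74 in sant1234-null and 4.90 in WT.

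Several falls in sant1234-null went down to a concentration of 0 or close to it. Over AT2TE09510 (chr2:2082224-2082624), a TE locus of 223 bp that lies beside the autophagy gene ATG8D, the concentration was 0 in sant1234-null and 6.98 in WT (FDR 7.59e-12 in the authors' deposited table). The matching window of the hda6 table had 6.99 in hda6 and 6.89 in WT. The region of AT1TE65780 had 0 in sant1234-null and 4.85 in WT (FDR 0.0224), and 3.69 in hda6 and 4.75 in WT in the authors' deposited tables. The region of AT5TE63610 had 1.79 in sant1234-null and 5.06 in WT (FDR 0.0483), and the same window had 4.72 in hda6 and 4.96 in WT in the authors' deposited tables. The region of AT1TE32715 had 2.53 in sant1234-null and 5.43 in WT (FDR 0.00875), and 5.28 in hda6 and 5.35 in WT. AT5TE48605 was the single region called in opposite directions, with 1.90 in sant1234-null and 6.48 in WT (FDR 0.0434), but 7.5 in hda6 and 6.34 in WT (FDR 0.00126). Both tables use the same WT samples, so these values are set side by side and the difference between the mutants was not tested. The TE covered 110 of the 401 bases of the window at AT2TE09510, 177 at AT1TE65780 and 145 at AT1TE32715. At AT5TE63610 and AT5TE48605 it covered the whole window. With folds centred on all peaks the fall at AT5TE63610 did not pass (centred FDR 0.0545).

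Most TE regions were weak in WT, and their calls were mostly rises. In WT, 90 of the 1448 (6.22%) reached the median concentration of all peaks of the hda6 table (6.32), as did 88 of the 786 (11.2%) in the sant1234-null table (6.41). Of those 90 regions 7.78% were called higher in hda6 and 17.8% lower, beside 0.627% and 43.5% of genic peaks without a TE at that WT level. Of the 88 regions 11.4% were called higher in sant1234-null and 10.2% lower, beside 4.2% and 25.9% of such genic peaks. Among peaks below the WT median, 13.8% of TE regions and 8.68% of genic peaks were higher in hda6, while 17.9% of TE regions and 26.4% of genic peaks were higher in sant1234-null. At the lower WT level the order of the classes was thus not the same in both mutants. Lower calls were few there in both classes, at 0% of TE regions and 1.95% of genic peaks in hda6. In sant1234-null they were 0.430% of TE regions and 0.179% of genic peaks.

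Peaks over neither a TE nor a gene were called higher in 19.6% in hda6 and 29.6% in sant1234-null, above the overall shares of the TE regions. A split by the mean of both genotypes gives larger shares for strong TE regions, 40.1% higher in hda6 and 40.6% in sant1234-null, but a region can enter that class through its own rise in the mutant, so those shares are partly set by the split. The WT level also enters the fold, so the split by WT is a description as well. All these are shares over regions of single values, and differences between the classes were not tested.

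**Figure D2:**
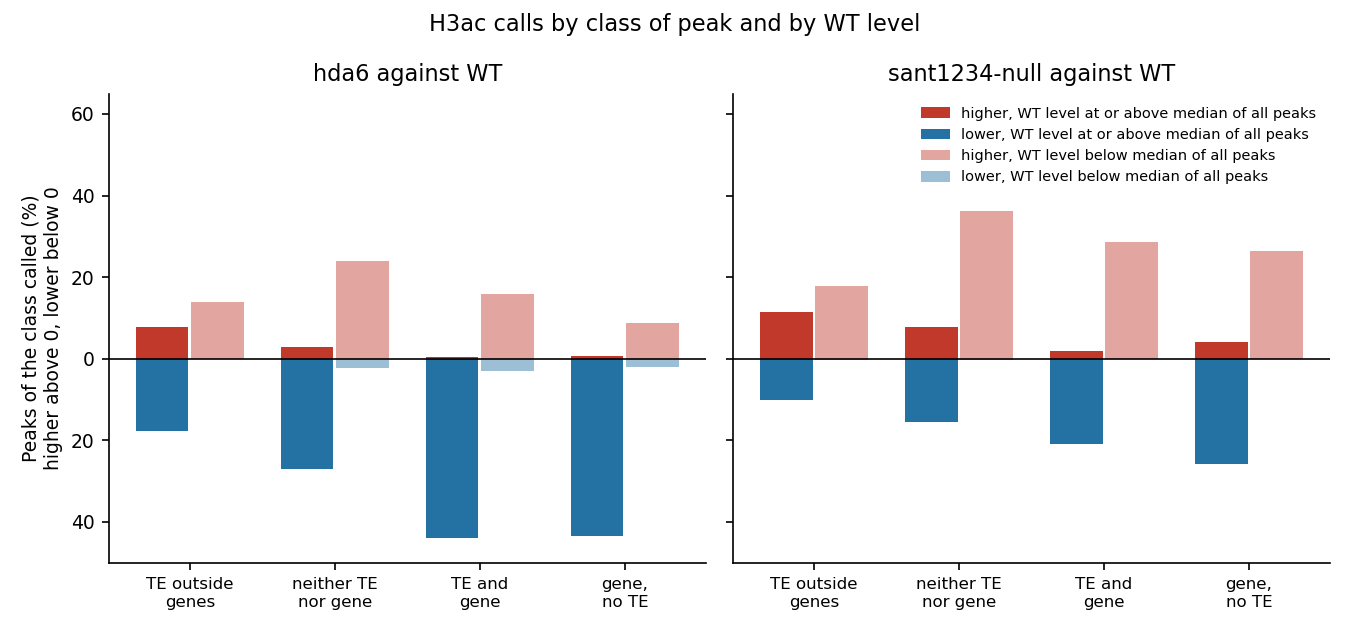
Share of peaks called higher (above 0) or lower (below 0) at an FDR under 0.05, by class of peak, for hda6 (left) and sant1234-null (right). Dark bars are peaks at or above the median WT concentration of all peaks and light bars those below it. Among peaks at or above it, TE regions were higher in 7.78% in hda6 and 11.4% in sant1234-null, against 0.627% and 4.2% of peaks at genes without a TE.

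The tables shared many of the regions. Of the hda6 regions 661 (45.6%) overlapped a TE region of the sant1234-null table, and 659 (83.8%) of the sant1234-null regions overlapped one of the hda6 table. Of the 194 regions higher in hda6, 69 (35.6%) had an overlapping region in the sant1234-null list, and of the 135 higher in sant1234-null 88 (65.2%) had one in the hda6 list. Called higher in both were 57 regions of the hda6 table and 56 of the sant1234-null table, and 7 were called lower in both. The WT values of overlapping windows differed by a median of -0.09 (hda6 table minus sant1234-null table) and by -1.90 to 4.88 at the extremes, so WT values belong to a window and a table.

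By mean absolute fold, AT5TE54905 led the regions higher in both, with 6.25 in hda6 and 7.88 in sant1234-null and 0 in WT in either table. AT2TE31290 followed with 5.26 in hda6, 6.68 in sant1234-null and 0 in WT in either table. AT3TE88720 (chr3:21786312-21786712 in the hda6 table) had 6.37 in hda6 and 1.60 in WT, and 7.37 in sant1234-null and 0.86 in WT in its table. AT3TE63380 had 6.50 in hda6 and 3.77 in WT, against 7.84 in sant1234-null and 3.93 in WT. In the 10 shared hda6 windows with the largest mean fold the concentration was higher in sant1234-null than in hda6, a difference that was not tested and that does not allow for the lower median fold of all peaks in hda6.

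Where a TE region lay in the genome went with how often it rose. The chromosomes were divided into 240 bins of 500 kb, and the 48 bins in which TE loci cover more bases than gene loci were taken as TE-rich. These bins held 71.0% of the TE regions of the hda6 table and 65.8% of those of the sant1234-null table, but 8.61% and 5.96% of all peaks. In hda6, 8.17% of the TE regions in TE-rich bins and 26.2% of those in the other bins were called higher. In sant1234-null the shares were 10.1% in TE-rich bins and 30.9% in the other bins. Among genic peaks without a TE the hda6 shares were the other way round, with 10.7% in TE-rich bins and 4.11% elsewhere.

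Long TE loci rarely gained the mark. In hda6, 25.1% of the regions over TE loci of up to 1 kb were higher, 20.9% of those of 1 to 2 kb, 14.2% of 2 to 4 kb, 20.1% of 4 to 6 kb and 3.50% of those over 6 kb. In sant1234-null the shares were 28.8%, 31.5%, 22.0%, 24.2% and 2.36% in the same order of length. A TE locus is the interval printed in the tables, which can join neighbouring TEs: 7.48% of TEs share their interval with another. Length and position overlapped. Within TE-rich bins of the hda6 table, 2.35% of the regions over loci above 6 kb were higher, against 13.9% of those over shorter loci.

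Nearness to a gene went the same way. Of the 388 hda6 regions with a gene within 2 kb, 25.8% were higher, against 8.87% of the 1060 that were farther away. In sant1234-null 30.3% of 254 near regions and 10.9% of 532 far regions were higher. Inside the TE-rich bins of the hda6 table, 23.2% of near regions and 5.84% of far regions were higher, and outside them 27.2% and 24.7%. These differences lay among regions weak in WT. Below the WT median of all peaks, 3.37% of hda6 regions over loci above 6 kb were higher and 21.1% of those over shorter loci, and the shares by distance were 29.3% within 2 kb and 8.83% farther away. In sant1234-null they were 2.08% and 29.1% by length, and 36.2% and 10.8% by distance. At or above the WT median the counts were small and the order by length and distance was not kept: in hda6, 1 of 8 regions over loci above 6 kb and 6 of 82 over shorter loci were higher, and 6.67% of near and 10% of far regions. Likewise, at or above the median of all peaks by the mean of both genotypes, 42.9% of 14 hda6 regions over long loci and 39.9% of the others were higher, and 33.3% of near and 50.8% of far regions. By position, 8.29% of hda6 regions in TE-rich bins and 28.5% of those elsewhere were higher below the WT median. At or above it the counts were small here too, with 2 of 39 (5.13%) and 5 of 51 (9.80%), so the order there is uncertain.

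**Figure D3:**
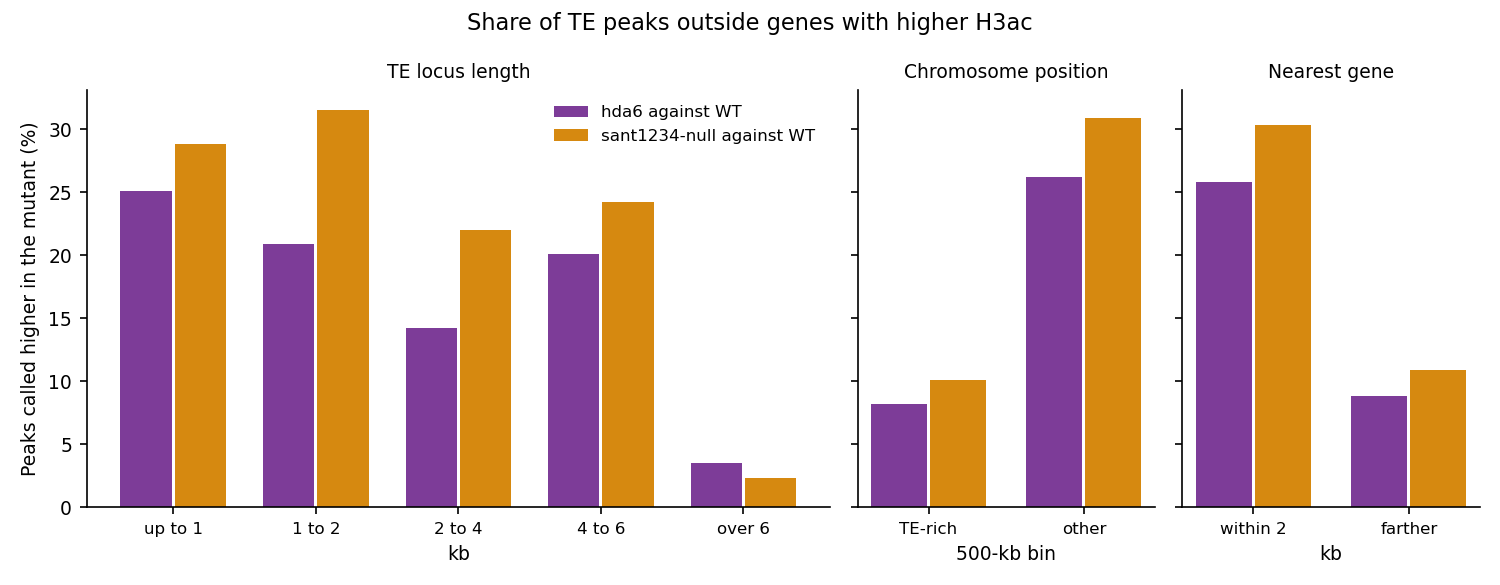
Share of TE regions outside genes called higher in the mutant (vertical axis, percent) by length of the TE locus (left), by whether the 500-kb bin is TE-rich (middle) and by distance to the nearest gene (right), for hda6 (purple) and sant1234-null (orange). Loci over 6 kb stand at 3.50% and 2.36%, and the regions in TE-rich bins at 8.17% and 10.1%.

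Regions with copies elsewhere in the genome were seldom called. A near-identical copy elsewhere was found for 33.0% of the hda6 TE regions and 35.9% of the sant1234-null TE regions, beside 0.942% and 0.929% of peaks at genes without a TE. Of the regions with such a copy 3.56% were higher in hda6 and 1.42% in sant1234-null, while of those without one 18.2% were higher in hda6 and 26.0% in sant1234-null. The sources used here do not say how reads shared between copies were counted, and values of regions with copies are uncertain for that reason. At 80% identity over 80% of their length, 460 hda6 regions fell into 129 groups of related sequence. The largest group had 31 regions, all in TE-rich bins of chromosomes 3, 4 and 5, with a median of 2.65 in hda6 and 2.10 in WT, and none of the 31 was called in either direction by the authors' DiffBind test.

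The median G and C content of the central 300 bases was 46.0% over the hda6 TE regions and 45% over all peaks. It was 44.5% in the regions that rose in hda6 and 46.3% in those not called, and 44.0% in the regions that rose in sant1234-null and 46.0% in those not called. GAGAGA, on either strand, was in 24.4% of the hda6 TE windows and in 39.4% of the windows of all peaks, and in 39.2% of the windows that rose. AACCCTA, a sequence found in plant promoters and in telomere repeats, was in 6.22% of the hda6 TE windows and 11.4% of all windows. The other motifs were TGGGCC, in 6.15% of TE windows and 4.0% of all windows, the G-box core CACGTG, in 3.18% and 4.33%, and the TATA-like TATAAA, in 9.39% and 10.8%. Matches of these motifs may overlap, and each window was counted at most once per motif. A match describes the letters of a window only.

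Sadhu elements, non-coding retroelements named one by one in RefSeq, showed both outcomes. RefSeq lists 16 Sadhu loci, of which 10 lay under hda6 TE regions and 6 under sant1234-null TE regions. In hda6, 5 of the 10 were higher, and 4 of these had a low concentration in WT. SADHU3-1 stood at 8.56 in hda6 and 0 in WT, SADHU8-1 at 8.96 in hda6 and 1.21 in WT, SADHU5-2 at 8.57 in hda6 and 1.99 in WT, and SADHU3-2 at 8.68 in hda6 and 2.72 in WT. The fifth, SADHU5-1, had 5.88 in hda6 and 3.93 in WT (FDR 0.0134 in the authors' deposited table), and it was higher in sant1234-null too, at 5.97 there and 4.02 in WT (FDR 0.0268).

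Other Sadhu elements carried some of the strongest H3ac of all TE regions in WT and were called lower in both mutants. SADHU1-1 had 9.81 in hda6 and 10.45 in WT, and 9.92 in sant1234-null and 10.54 in WT. SADHU1-2 had 9.21 in hda6 and 9.96 in WT, and 9.38 in sant1234-null and 10.07 in WT. SADHU2-1 had 8.83 in hda6 and 9.54 in WT, and 9.08 in sant1234-null and 9.64 in WT. The FDR of these 3 elements in the authors' deposited tables was 0.00323 to 0.0222 in hda6 and 0.00132 to 0.0237 in sant1234-null. With the hda6 folds centred on all peaks none of the 3 passed in hda6 (centred FDR 0.0842 to 0.248). SADHU1-3 (9.44 in hda6 and 9.71 in WT) was called in neither mutant, and SADHU4-1 was called higher only in sant1234-null, at 9.18 there and 8.70 in WT (FDR 0.0476 in the authors' deposited table). Related sequences were found within and across these outcomes. The peaks of SADHU3-1 and SADHU3-2, both higher in hda6, aligned over 387 bases at 78.8% identity, and those of SADHU1-1 and SADHU1-2, both called lower, over 324 bases at 73.5%. The peak of SADHU2-1, called lower, aligned with that of SADHU3-1, which rose, over 285 bases at 67.0%.

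**Figure D4:**
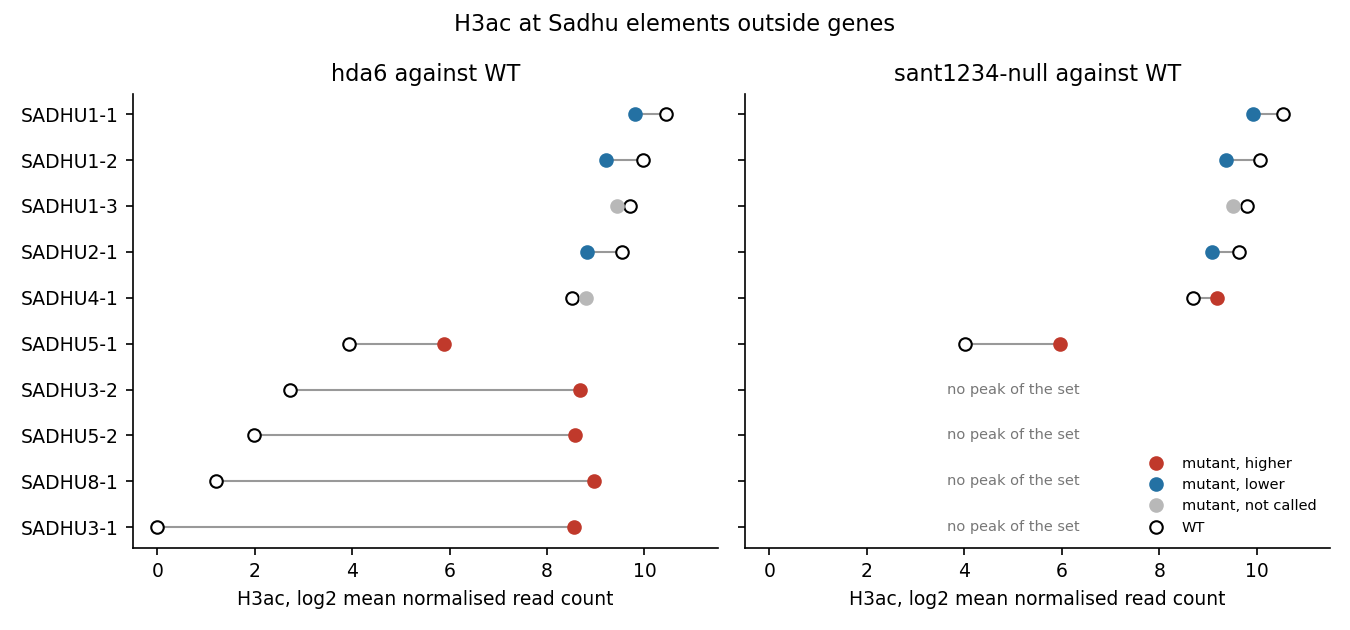
H3ac at the Sadhu elements under TE regions outside genes, as the log2 mean normalised read count in the mutant (filled) and in WT (open), for hda6 (left) and sant1234-null (right). SADHU3-1, SADHU8-1, SADHU5-2 and SADHU3-2 lie between 8.56 and 8.96 in hda6 and at 0 to 2.72 in WT, and no region of the sant1234-null table covers them.

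A few other elements have names in RefSeq. The copia-type LTR retrotransposon RE2 had a region with 7.23 in hda6 and 5.37 in WT (FDR 1.70e-07), and with 8.58 in sant1234-null and 5.52 in WT (FDR 2.08e-27 in the authors' deposited tables). CYTOSLEEPER was higher in sant1234-null at one of its regions, with 7.64 there and 6.32 in WT (FDR 8.81e-05 in the authors' deposited table), whereas in hda6 that region had 6.90 against 6.34 in WT (FDR 0.181). MUG4, one of the MUSTANG genes derived from transposases, was called lower in both, with 7.10 in hda6 and 8.05 in WT (FDR 0.00638) and 7.53 in sant1234-null and 8.14 in WT (FDR 0.0385 in the authors' deposited tables). With folds centred on all peaks MUG4 did not pass in hda6 (centred FDR 0.0890) and was near the threshold in sant1234-null (0.0492).

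RNA of TEs under the regions was called higher in hda6 at a minority of loci. The 1448 regions covered 1345 TEs, of which the authors' Cuffdiff table marks 138 as tested. RNA was higher in hda6 for 68 of these (49.3%) and lower for 5 (3.62%) at an adjusted p under 0.05, beside 26.1% and 4.35% of all 643 TEs tested, and 19.8% of the 505 tested TEs not under a region were higher. A TE is tested only where one genotype has enough reads, and 48 of the 68 were listed at 0 in WT. A TE listed at 0 in WT enters the tested set only through its level in the mutant, so these shares are descriptions. FPKM values of TEs are compared only within a table, since the WT values of the hda6 table were 0.694 of those of the hhp1 table at the median.

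By log2 change among TEs above 0 in both genotypes, the largest rise was AT5TE08220, at 1630 FPKM in hda6 and 1.99 FPKM in WT (adjusted p 0.0396 in the authors' deposited table). AT3TE64435 had 975 FPKM in hda6 and 5.36 FPKM in WT, and AT3TE43550 had 2392 FPKM in hda6 and 19.0 FPKM in WT. Some of the highest levels in hda6 stood against low WT values. AT1TE42875 had 26046 FPKM in hda6 and 0 in WT, SADHU3-2 had 18350 FPKM in hda6 and 400 FPKM in WT, and AT2TE23970 had 14755 FPKM in hda6 and 0 in WT. Among the Sadhu elements that gained H3ac, SADHU8-1 had 12147 FPKM in hda6 and 0 in WT, SADHU3-1 6653 FPKM in hda6 and 0 in WT, SADHU5-2 2764 FPKM in hda6 and 0 in WT, and SADHU5-1 2426 FPKM in hda6 and 645 FPKM in WT, with an adjusted p of 0.000230 for each in the authors' deposited table. SADHU1-2, with less H3ac, had 2004 FPKM in hda6 and 2120 FPKM in WT (adjusted p 0.832 in the authors' deposited table).

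Large RNA differences were not always called. AT4TE32185, the region with the highest H3ac rise, had 9291 FPKM in hda6 and 15.8 FPKM in WT with an adjusted p of 0.161, and AT4TE13280 had 2716 FPKM in hda6 and 17.7 FPKM in WT with an adjusted p of 0.295 in the authors' deposited table. Of the 10 largest H3ac rises, 7 lay over a tested TE and 5 over a TE with higher RNA. AT5TE39195 and AT4TE40115, both short TEs among these 10, were listed at 0 FPKM in hda6 and at 0 FPKM in WT.

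RNA calls and H3ac calls often fell on the same loci in hda6. Of the 194 regions with higher H3ac in hda6, 65 lay over a tested TE, and 51 of these 65 (78.5%) covered a TE with higher RNA. Of the 1238 regions not called 92 lay over a tested TE, and 31 of these 92 (33.7%) covered one with higher RNA. Over all regions, with a tested TE or not, the shares were 26.3% of the 194 and 2.50% of the 1238. TEs and windows at 0 in WT can enter these counts through the mutant alone, so the shares are descriptions and were not tested. Read from the RNA side, 51 of the 68 TEs with higher RNA (75%) lay under a region with higher H3ac. For most of the 194 regions no TE was tested, so RNA could not be read there. At a few loci RNA and H3ac were called in opposite directions. AT4TE42860 had lower RNA, at 408 FPKM in hda6 and 3846 FPKM in WT (adjusted p 0.000230 in the authors' deposited table), yet one of its 3 regions rose, to 5.37 in hda6 against 0 in WT. AT5TE49725 had lower RNA in hda6 as well, at 243 FPKM against 533 FPKM in WT (adjusted p 0.000450 in the authors' deposited table), with 1 of its 5 regions higher in H3ac.

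In sant1234-null fewer TEs changed. Of the 799 TEs under its regions 71 were tested, with RNA higher for 12 (16.9%) and lower for 1 (1.41%), beside 5.72% and 4.24% of all 472 TEs tested. All 12 were above 0 in WT. AT2TE24530 had the largest change, with 379 FPKM in sant1234-null and 12.7 FPKM in WT (adjusted p 0.0452 in the authors' deposited table). Its H3ac stood at 8.50 in sant1234-null and 5.30 in WT. AT3TE30970 had 1538 FPKM in sant1234-null and 126 FPKM in WT, and its neighbours AT3TE30965 and AT3TE30960 had 1310 and 1265 FPKM in sant1234-null against 406 and 362 FPKM in WT, each with an adjusted p of 0.00103 in the authors' deposited table. Of these 3 neighbours, AT3TE30970 and AT3TE30965 lay under regions with higher H3ac and AT3TE30960 did not (FDR 0.524). CYTOSLEEPER had 877 FPKM in sant1234-null and 189 FPKM in WT, and SADHU5-1 had 3258 FPKM in sant1234-null and 909 FPKM in WT. In all, 9 of the 12 TEs with higher RNA (75%) lay under a region with higher H3ac. Of the regions over a tested TE, 10 of 23 with higher H3ac (43.5%) and 5 of 55 not called (9.09%) covered a TE with higher RNA. Over all regions, with a tested TE or not, these shares were 7.41% and 0.782%.

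No ChIP was made in hhp1 and mbd124, so their RNA was read over the 1416 TEs under the regions of either table. RNA was higher for 3 and lower for 1 of 63 tested TEs in hhp1 (4.76% and 1.59%), beside 2.65% and 4.64% of all tested TEs. It was higher for 4 and lower for 4 of 63 in mbd124 (6.35% each), beside 3.12% and 4.45%. The 3 higher in hhp1 were CYTOSLEEPER (436 FPKM in hhp1 and 194 FPKM in WT), AT3TE43610 (11393 FPKM in hhp1 and 6498 FPKM in WT) and AT4TE28200 (818 FPKM in hhp1 and 502 FPKM in WT), with adjusted p of 0.00647, 0.0191 and 0.0348 in the authors' deposited table. In mbd124 AT2TE42485 was higher at 1157 FPKM against 568 FPKM in WT (adjusted p 0.00150), and SADHU3-2 was higher at 1266 FPKM against 577 FPKM in WT (adjusted p 0.0442 in the authors' deposited table). AT5TE49725 was called lower in each of the 4 tables, with 219 FPKM in hhp1 and 772 FPKM in WT, 351 FPKM in mbd124 and 766 FPKM in WT, 219 FPKM in sant1234-null and 751 FPKM in WT, and the hda6 values given above. None of its regions was called lower in H3ac in either table, and in sant1234-null both regions were called higher (6.70 against 4.06 in WT at the more significant one, FDR 5.75e-06 in the authors' deposited table). All 4 RNA tables use the same WT samples.

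**Figure D5:**
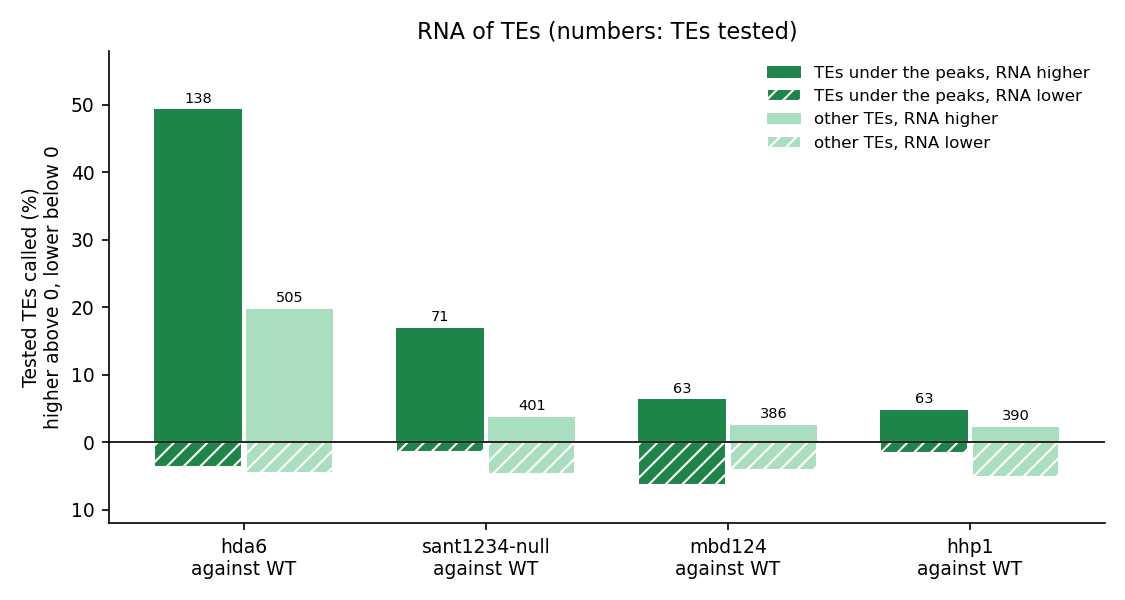
Share of tested TEs with higher (above 0) or lower (below 0, hatched) RNA in each mutant, for TEs under the H3ac regions (dark) and for other TEs (light), with the number tested above each bar. TEs under the regions of the mutant's own peak table reach 49.3% higher in hda6 and 16.9% in sant1234-null. For mbd124 and hhp1 the TEs are those under regions of either table, with 6.35% and 4.76% higher. The sets thus differ between mutants. Among all tested TEs the shares were 26.1% in hda6, 5.72% in sant1234-null, 3.12% in mbd124 and 2.65% in hhp1.

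Genes next to the regions were called in both directions. Of 184 tested genes nearest to an hda6 region within 2 kb, 24 (13%) had higher and 9 (4.89%) lower RNA, beside 7.25% and 4.79% of all tested genes. Of the 57 nearest to a region with higher H3ac, 8 were higher and 6 lower. Beside the region of SADHU8-1, FAX5, of a family of fatty acid exporters, had 125 FPKM in hda6 and 86.3 FPKM in WT (adjusted p 0.0211 in the authors' deposited table). Beside regions with 0 in WT, the defensin gene PDF2.1 had 13.8 FPKM in hda6 and 34.5 FPKM in WT (adjusted p 0.000899) and the purine permease gene PUP13 had 8.06 FPKM in hda6 and 11.7 FPKM in WT (adjusted p 0.0397 in the authors' deposited table). AT2G05540 had 65.2 FPKM in hda6 and 22.5 FPKM in WT, while AT2G38995 had 1.60 FPKM in hda6 and 4.69 FPKM in WT.

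In sant1234-null 14 of 121 nearest genes (11.6%) were higher and 8 (6.61%) lower, beside 9.33% and 5.93% of all tested genes. Of the 35 nearest to a region with higher H3ac, 8 were higher in the authors' deposited Cuffdiff table and 0 lower. Among these were ANAC13, a NAC transcription factor gene, at 9.46 FPKM in sant1234-null and 6.29 FPKM in WT (adjusted p 0.00305), and the cytochrome P450 gene CYP705A13, at 6.82 FPKM in sant1234-null and 3.57 FPKM in WT (adjusted p 0.000723 in the authors' deposited table). SRP-54A, a signal recognition particle gene beside CYTOSLEEPER, had 6.26 FPKM in sant1234-null and 4.08 FPKM in WT (adjusted p 0.00647 in the authors' deposited table). The differences in log2 were small, from 0.56 to 0.94 for 7 of the 8 and 2.2 for AT1G30160.

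Genes of the silencing machinery were read from a list of 23 genes for DNA methylation, its removal, histone marks and the small RNA pathway, all tested. In hda6 1 (4.35%) was called higher and 1 lower, beside 7.25% and 4.79% of all tested genes. In sant1234-null 4 (17.4%) were called higher and 0 lower, beside 9.33% and 5.93%. None was called by Cuffdiff in hhp1, beside 2.88% higher and 3.26% lower of all tested genes, or in mbd124, beside 4.85% and 6.42%. At an unadjusted p under 0.05 there were 2 in hhp1 and 1 in mbd124. In hda6 the DNA demethylase gene ROS1 was lower, with 4.69 FPKM in hda6 and 12.0 FPKM in WT (adjusted p 0.000899 in the authors' deposited table). CLSY1, a chromatin remodeller of the small RNA pathway, was higher, with 4.07 FPKM in hda6 and 2.80 FPKM in WT (adjusted p 0.0224 in the authors' deposited table). The 4 higher in sant1234-null were CLSY1 (4.61 FPKM in sant1234-null and 2.86 FPKM in WT), NRPE1, a subunit gene of RNA polymerase V (3.65 FPKM in sant1234-null and 2.65 FPKM in WT), the histone methyltransferase gene ATXR5 (7.55 FPKM in sant1234-null and 5.14 FPKM in WT) and ROS1 (16.7 FPKM in sant1234-null and 12.3 FPKM in WT). Their adjusted p in the authors' deposited table ran from 0.000723 to 0.0448.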

How the data were processed

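Values of 33 samples stand in the tables as 1 value per genotype. The submitters' processing notes list, without saying what each did, MACS2 2.1.1.20160309 and DiffBind, Bowtie2 2.4.1, bedtools, TopHat2 2.0.12, Cuffdiff, CASAVA and Cufflinks 2.2.1, and name TAIR10 as the build. Their settings were not given there. Per the file headers, the deposited peak tables give for each genotype a log2 concentration, then the log2 fold (mutant over WT) and the p-value with its FDR, which equals the Benjamini-Hochberg adjustment of p within 0.758%. The authors deposited FPKM values and q-values for genes and TEs, in the layout of Cuffdiff, and mapped reads per genotype in the ChIP tables, whose read counts per gene were not used. The series' design text calls the replicates biological, and independent for RNA, and the tables do not show how many entered each value. Unused columns of per-sample values numbered 0.

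Here peaks were overlapped with loci, calls counted, folds centred on the median of all peaks and called again by a normal test (tested on simulated data), and near-identical copies found with BLAST+ 2.17.0 on RefSeq TAIR10.1, where 99.95% of nuclear genes of the ChIP tables have the same position. Among gene loci of the RNA data, 71.72% equal the RefSeq gene and 99.98% equal or span it. Python 3.11.15, pandas 2.3.3 and scipy 1.17.1 were used. Regions, gene list and tests were chosen with earlier results of these data known.

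Named by rule were, per peak table, the 10 called regions with the largest positive and the 10 with the largest negative fold, the 5 with the highest WT concentration per kb, up to 10 called alike in both tables by mean absolute fold, up to 10 TEs per TE table with called RNA by log2 change, and up to 10 called genes within 2 kb of a called region. From these lists the text gives examples. Named after their values were seen were the elements with a RefSeq name, the TEs with high FPKM in hda6 and 0 in WT, regions with WT above 0, AT4TE28200 for its FDR, AT4TE42860 and AT5TE49725. Sequences were to come from regions called in both tables first; 4 Sadhu elements took the place of lower-ranked ones.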

Additional observations from a re-analysis of the deposited data

How the results depend on the processing

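No paired analysis was possible because the tables hold 1 value per genotype, and for the same reason no replicate could be left out. Of 58 summary counts, medians or percentages under an alternative, 41 were judged the same. Counts had to stay within 1.5 times their value, while medians and percentages were judged by limits of their own. At an FDR under 0.01 the TE regions called lower numbered 6 in hda6 and 4 in sant1234-null, and with centred folds 0 in hda6. Regions at or above the median concentration of all peaks had 61 higher in hda6, and 52 higher and 7 lower in sant1234-null, by construction out of fewer regions. At or above the median WT concentration, a split chosen after seeing the data, 7 were higher in hda6 and 10 in sant1234-null. TEs with at least 50% of their length under a region numbered 8 higher and 1 lower in hda6, and 1 higher and 0 lower in sant1234-null, of 18 and 12 tested by Cuffdiff. At an adjusted p under 0.01, 3 TEs were lower in hda6. Genes within 500 bp numbered 10 higher and 2 lower in hda6, and 5 higher and 1 lower in sant1234-null. Higher calls in hda6 ranged from 137 at the stricter FDR to 255 with centred folds, and in sant1234-null from 98 to 136. Leaving out regions with a near-identical copy, or listed at 0 in a genotype, was chosen after seeing the data and left 177 and 144 higher in hda6 and 131 and 119 in sant1234-null. Of 67 named regions, 13 lost their call at an FDR under 0.01 and 14 with centred folds. Pseudocounts of 0.1 and 1 FPKM did not move the median log2 change of TEs above 0 in both genotypes (0.41 in hda6 and 0.27 in sant1234-null), and bins of 200 kb gave 71.1% and 65.3% of regions in TE-rich bins. Values without replicates, WT windows at 0 and shared reads of TE copies limit what these counts show.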

Other observations

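Values of the regions that belong to no comparison above concern their spacing. In the hda6 table, 254 TE loci carried 2 or more of the regions, with up to 8 on one locus, and in that of sant1234-null there were 124 such loci, with up to 7. Regions of 1 locus are separate windows in the same TE interval and cannot be taken as independent. TE loci covered the whole window in 83.6% of the hda6 regions and 80.2% of the sant1234-null regions, and in 70.6% and 72.6% of the regions that rose.

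Among the hda6 regions listed at 0 in WT, 23.4% of 77 windows held AACCCTA and 24.7% held TATAAA, beside 6.22% and 9.39% of all hda6 TE windows. For sant1234-null, 3.12% and 9.38% of the 32 such windows held them, beside 5.34% and 10.4% of all its TE windows. A near-identical copy elsewhere in the genome was found for 31 of the 77 regions (40.3%) and 15 of the 32 (46.9%). Their windows may therefore not be independent sequences. Of the 125 regions higher in hda6 without an overlapping TE region in the sant1234-null list, 124 overlapped no peak of that table at all. That is 63.9% of the 194 risen regions, beside 53.4% of the hda6 regions not called. In the other direction 43 of the 135 regions higher in sant1234-null (31.9%) overlapped no peak of the hda6 table, beside 12.1% of those not called.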
